A study of Mus musculus with 8 samples.

Results

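Atad2 encodes a nuclear AAA ATPase with a bromodomain, and it was compared here with its paralog Atad2b and with 7 other genes of bromodomain proteins in C2C12 cells, a mouse myoblast line that divides as single cells and can be made to fuse into myotubes. The 9 genes (Atad2, Atad2b, Brd1, Brd2, Brd3, Brd7, Brd8, Brd9 and Brpf1) were taken by symbol, all 9 were found among the 35976 genes of the deposited table, and all 9 passed the filter on low values among 14703 genes tested. RNA came from cells that had received a non-targeting shRNA (control, 4 libraries) or an shRNA against Atad2 (Atad2 shRNA, 4 libraries), lysed 48 h after transfection. Neither the hairpin sequence nor the number of hairpins is given in the sources used here, nor whether transfected cells were selected. The labels do not tie the libraries to separate cultures, so p-values measure the spread between these libraries, which may be technical.

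A bromodomain is a bundle of helices with a pocket that holds acetylated lysine, most often on histone tails, and proteins that carry one are called readers of acetylation. The readers described here belong to different complexes. BRD2 and BRD3 are BET proteins, which recruit elongation factors to acetylated chromatin. BRPF1 and BRD1 are scaffolds of MOZ, MORF and HBO1 acetyltransferases, BRD8 is a subunit of the TIP60 complex, and BRD7 and BRD9 mark separate forms of the SWI/SNF remodeller. ATAD2 joins its bromodomain to an ATPase ring, is known as a coactivator of E2F and MYC in dividing cells, and shares this layout only with ATAD2B among mammalian proteins.

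Since the target and its paralog encode such similar proteins, the coding sequences were compared first (GENCODE M21 transcripts, build GRCm38, which mm10 also names). The longest coding sequence of Atad2 holds 4095 bases and that of Atad2b 4383 bases. No run of 21 bases was common to both, and the longest identical runs held 17 bases. The transcripts could therefore be told apart over any stretch of 21 bases. The run shown here is 1 of 2 of that length and lies in the part that encodes the bromodomain. It sits in exon 22 of 28 of Atad2 (chr15:58102397-58102413, minus strand) and in exon 25 of 31 of Atad2b (chr12:5018106-5018122, plus strand). Capitals mark the shared run, with 20 flanking bases of each gene on both sides.
Atad2: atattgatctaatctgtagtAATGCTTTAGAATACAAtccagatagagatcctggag
Atad2b: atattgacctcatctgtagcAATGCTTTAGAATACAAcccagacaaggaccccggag

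The other 7 genes shared coding runs of at most 13 bases with Atad2. Over whole transcripts, untranslated parts included, Brd7 alone among the 8 had any run of 21 bases in common with Atad2, with 2 such words of 5907 in Atad2, neither of them in the coding sequences of both genes. The gene bodies overlapped little with other annotated exons. Brpf1 shares 142 exonic bases with the antisense gene Gm15492, and whether counting used strand was not stated, which leaves its reads uncertain to that extent.

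Recovered depth was 61.4 to 73.0 Mreads in the controls and 50.3 to 72.3 Mreads in the Atad2 libraries, at which 3 reads, the limit that a gene without reads allows, equal 0.0411 to 0.0596 RPM. Levels are log2(normalized count + 1), differences are Atad2 shRNA minus control on that scale with their standard error, and a gene is called changed at an adjusted p under 0.05 in limma's test, adjusted over all genes tested. Of these genes 60.4% were called, 30.8% higher and 29.6% lower, so a call by itself sets a gene little apart. Myoblast markers were present in every library. Of 8, 4 rose, 3 fell and 1 was not called. The increases were at most 0.38 on the log2 scale, for Des, the highest of the list. The decreases were -0.96 for Cdh15, -1.28 for Myf5 and -3.29 for Msc, which was down to 1 to 10 reads. Msc passed the filter on low values only through the controls (mean log2 level 5.80, against 2.51 with the Atad2 shRNA). Its decrease is therefore given as a description and not as a test. Summed normalized counts of the list, led by Des, were 64994 to 68307 in the controls and 70938 to 75635 in the Atad2 libraries. Of markers of other cell types, Adgre1 and Tyrobp (macrophage), Emcn (endothelial), Adipoq and Lep (adipocyte) had no read in any library. The summed counts of these lists moved with the groups, from 907 to 972 in the controls to 1099 to 1309 in the Atad2 libraries for 7 macrophage markers, mostly Cd14 (-0.13, not called) and Cd68 (1.17), and from 249 to 293 down to 154 to 165 for 6 endothelial markers, led by Egfl7 (-0.82). They stood at 2664 to 2931 and 3663 to 4237 for 6 adipocyte markers, mostly Pparg (0.52), while Fabp4, the other tested gene of that list, fell (-1.80). For 6 osteoblast markers, mostly Runx2 (0.44), they stood at 6129 to 6800 and 8163 to 9221. Sp7, a weak gene of that list, had 1 to 18 reads in the controls and 59 to 111 in the Atad2 libraries. Bglap of the same list, not tested, went the other way, with 1 to 11 reads in the controls and 0 to 3 in the Atad2 libraries. Dmp1 (0.43) was not called, and Alpl and Ibsp, not tested, had overlapping groups. The endothelial marker Pecam1, not tested, went against Egfl7, with 1 to 6 reads in the controls and 6 to 14 in the Atad2 libraries. The part of these lists in the results below was not tested. In bulk RNA, fewer cells of a type and less RNA per cell cannot be told apart.

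The knockdown target fell by 85.0% in the cells with the Atad2 shRNA. Atad2 (chr15:58094044-58135082, minus strand) had a log2 level of 14.66, 14.74, 14.67 and 14.60 in control replicates 1 to 4, against 11.87, 11.77, 12.05 and 12.05 in Atad2 replicates 1 to 4. Every Atad2 library thus lay more than 2 log2 units below every control. The log2 difference was -2.73 ± 0.05 (95% interval -2.84 to -2.63, limma adjusted p = 4.58e-20), with p = 0.0286 in an exact two-sided permutation test, the lower limit for groups of 4. A remainder of 15.0% of the control level was left, which still amounted to 3306 to 4086 reads per library. Among the 292 other tested genes whose control mean was at least that of Atad2, 0 had a larger decrease. Over all tested genes, at any level, 123 did.

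The paralog did not follow the target. Atad2b (chr12:4917353-5047394, plus strand) encodes the other ATPase with a bromodomain of this layout. Its log2 level was 11.35, 11.39, 11.51 and 11.44 in the controls and 11.54, 11.55, 11.63 and 11.46 with the Atad2 shRNA. Values of the groups overlapped, since Atad2 replicate 4 lay below control replicate 3. The difference was 0.12 ± 0.05 (limma adjusted p = 0.0275), or 8.98% with a 95% interval from 1.84 to 16.6%. The call was lost under 8 of 20 alternatives, among them quantile normalization (limma adjusted p = 0.233), cyclic loess (0.285), and the fits that omitted a single library: control replicate 1 (0.101) or 2 (0.0694), or Atad2 replicate 2 (0.0562) or 3 (0.101).

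The difference between target and paralog was tested directly within each library. The log2 level of Atad2 minus that of Atad2b was 3.31, 3.35, 3.16 and 3.17 in control replicates 1 to 4 and 0.33, 0.21, 0.43 and 0.59 in the Atad2 libraries. This gap shrank in all 4 Atad2 libraries, and its mean fell by 2.86 on the log2 scale (3.25 ± 0.10 against 0.39 ± 0.16, SD, n = 4 each, p = 0.0286 by exact two-sided permutation, again that lower limit).

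**Figure D1:**
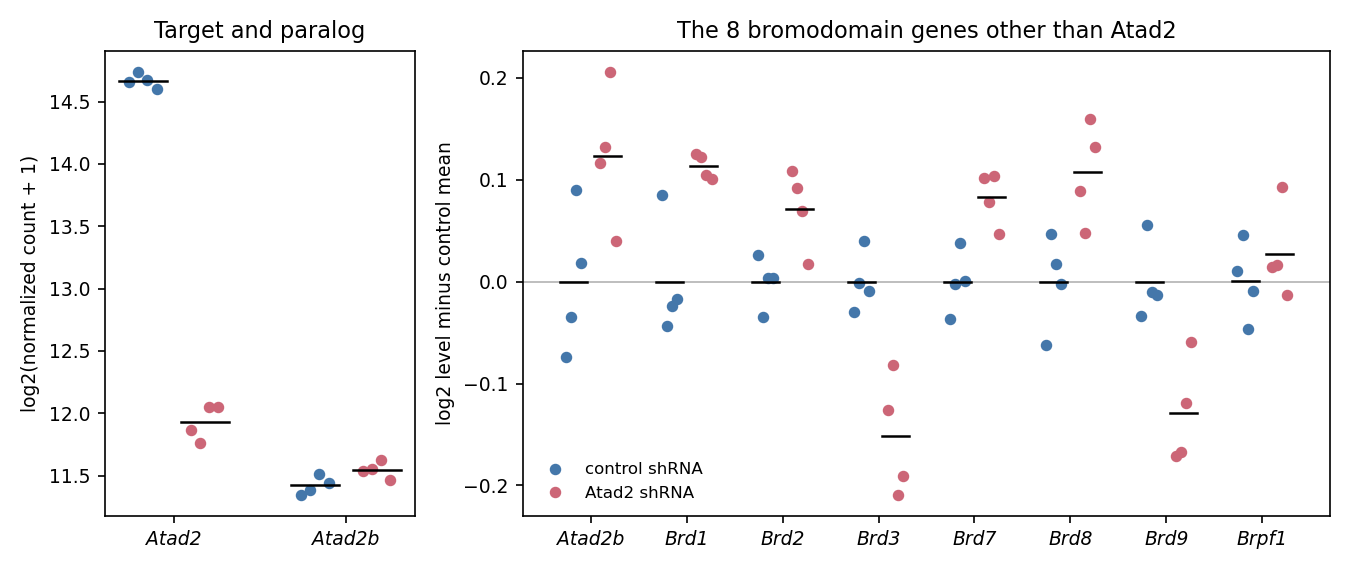
Left, log2(normalized count + 1) of Atad2 and Atad2b in each library. Right, log2 level minus the gene's control mean for the 8 genes other than Atad2; points are libraries (blue control, red Atad2 shRNA) and bars are group means. Atad2 is the gene whose groups stand far apart, while means of the other 8 genes differ by -0.15 to 0.12.

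Levels can be compared between genes only per length, so normalized counts were divided by the summed length of each gene's annotated exons (kb). On this scale Atad2 was the second highest of the 9 genes in control cells, at 4394 ± 169 per kb (SD, n = 4), below Brd2 at 5415 ± 94.9. The next was Brd9 at 1261 ± 34.4 per kb, whose libraries overlapped those of Brd1 at 1256 ± 51.2, followed by Brd7 (1176 ± 25.0), Brd3 (990 ± 20.2), Brd8 (847 ± 26.8) and Brpf1 (744 ± 19.8). Atad2b was the lowest at 342 ± 16.9 per kb. Apart from Brd9 and Brd1, neighbours in this order did not overlap between control libraries.

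After the knockdown Atad2 stood at 662 ± 64.3 per kb, 8th of the 9 genes and still above Atad2b at 372 ± 17.6. The per-kb ratio of Atad2 to Atad2b was 12.1 to 13.8 in the controls and 1.57 to 2.03 in the Atad2 libraries. Atad2 made up 25.9 to 27.8% of the summed per-kb level of the 9 genes in control libraries and 4.51 to 5.56% in Atad2 libraries. The per-kb level of Atad2b was 30.6 higher on average in the Atad2 libraries, while that of Atad2 fell by 3732. In the Atad2 libraries the order below Brd2 (5693 ± 157) was Brd1 (1358 ± 11.3), Brd7 (1246 ± 22.9), Brd9 (1154 ± 42.2), Brd8 (913 ± 31.0) and Brd3 (891 ± 36.4), with Brpf1 (758 ± 24.3) before Atad2. Values of Brd8 and Brd3 overlapped there.

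**Figure D2:**
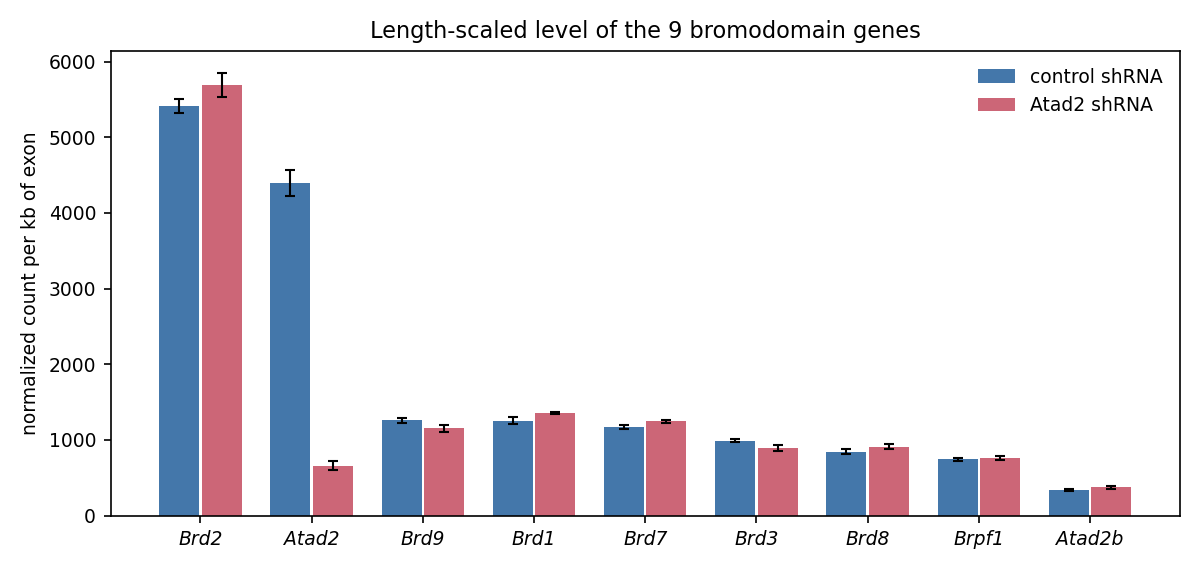
Normalized count per kb of annotated exon (mean and SD, n = 4 libraries) for the 9 genes, ordered by their control mean, in control (blue) and Atad2 shRNA libraries (red). Atad2 drops from 4394 to 662 per kb, between Brpf1 and Atad2b, and Brd2 stays the highest in both groups.

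Of the 8 bromodomain genes other than Atad2, 4 rose (Atad2b, Brd1, Brd2 and Brd8), 2 fell (Brd3 and Brd9) and 2 were not called (Brd7 and Brpf1), all with small differences. With quantile normalization or cyclic loess 0 were called higher and the same 2 lower, and Brd2 turned to a negative difference. Groups did not overlap for 5 of the 8, against 53.5% of all genes tested. Genes expressed as strongly as these 8 (mean log2 level 11.48 to 14.75, 4685 genes) were called in 72.9% of cases, 51.8% higher and 21.1% lower, and did not overlap in 66.4%. Shares of calls among the 8 were near these. Their median absolute log2 difference was 0.11, below the 0.17 of genes at that level and the 0.25 of all genes tested.

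Of the BET genes, Brd3 fell, while the call for Brd2 depended on the scaling and on single libraries; the difference between them was not tested. Brd3 (chr2:27445579-27507662, minus strand) stood at 12.40, 12.43, 12.47 and 12.42 in the controls and at 12.31, 12.35, 12.22 and 12.24 in the Atad2 libraries. All 4 Atad2 values were below all control values, and the gene fell by 10.0% (log2 difference -0.15 ± 0.04, limma adjusted p = 0.00138). The call held under all 20 alternatives (-0.24 to -0.13, limma adjusted p at most 0.0108). Brd2 (chr17:34112023-34122634, minus strand) stood at 14.74, 14.68, 14.72 and 14.72 in the controls and at 14.82, 14.80, 14.78 and 14.73 in the Atad2 libraries, with overlap through the lowest Atad2 value and the highest control. Its difference of 0.07 ± 0.03 (limma adjusted p = 0.0436) turned to -0.04 with quantile normalization (limma adjusted p = 0.233) and to -0.05 with cyclic loess (limma adjusted p = 0.144). The Brd2 call was also lost without control replicate 2, 3 or 4 or Atad2 replicate 1, 2 or 3 (limma adjusted p from 0.0643 to 0.128), and with median centring it was 0.0524.

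Elongation factors that work with BET proteins were mixed. Of 13 genes of this list, 4 rose, 4 fell and 5 were not called, beside 30.8% higher and 29.6% lower over all genes tested, with a median log2 difference of 0.01 against -0.01 over all genes tested. Ell2, an elongation factor of the super elongation complex, fell from 11.42 ± 0.05 to 10.46 ± 0.14 (-0.95 ± 0.06, limma adjusted p = 2.07e-11). Ccnt2, a cyclin subunit of the P-TEFb kinase, changed by -0.41 ± 0.06. The other 2 that fell, named after their values were seen, were Hexim1, the P-TEFb inhibitor (-0.24 ± 0.05), and the scaffold gene Aff1 (-0.18 ± 0.03). Jmjd6, a hydroxylase that binds BET proteins, and Aff4, a super elongation complex scaffold, rose by 0.33 ± 0.04 and 0.20 ± 0.03. Cdk9, the kinase of P-TEFb, and Mepce, which caps the RNA that holds P-TEFb inactive, also rose, by 0.22 ± 0.04 and 0.19 ± 0.04, and are named after their values were seen. In no case did a member of this list change 2-fold.

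The acetyltransferase scaffolds Brd1 and Brpf1 also differed in their calls. Brd1 (chr15:88687034-88734233, minus strand) stood at 12.76, 12.63, 12.65 and 12.66 in the controls and at 12.80, 12.80, 12.78 and 12.78 in the Atad2 libraries. All 4 Atad2 values lay above the highest control, which was replicate 1. The difference was 0.11 ± 0.03 (limma adjusted p = 0.00791), and 0.02 with quantile normalization (limma adjusted p = 0.694) or cyclic loess (0.699). Brpf1 (chr6:113307137-113324860, plus strand) had overlapping levels of 11.84, 11.88, 11.79 and 11.82 in the controls and 11.85, 11.85, 11.92 and 11.82 in the Atad2 libraries. Its difference was 0.03 with a 95% interval from -0.05 to 0.11 (limma adjusted p = 0.566), and it was negative but not called with both normalizations. A test of the difference between these 2 genes was not made. Of 6 partner genes 2 rose, beside 30.8% over all genes tested and 51.8% of genes at the level of the 8 readers. The 2 were the acetyltransferase genes Kat6a (MOZ, 0.25 ± 0.03) and Kat7 (HBO1, 0.15 ± 0.03). The other 4 (Kat6b, Ing4, Ing5 and Meaf6) were not called and lay below the level of the 8 readers, so neither share is matched to this list. The Kat7 call was lost with quantile normalization (limma adjusted p = 0.118) and cyclic loess (0.251).

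Brd8, on chromosome 18, encodes the bromodomain subunit of the TIP60 acetyltransferase complex. Its levels were 12.12, 12.23, 12.20 and 12.18 in the controls and 12.27, 12.23, 12.35 and 12.32 in the Atad2 libraries, where the lowest value cleared the highest control by a margin too small to show at 2 decimals. The difference of 0.11 ± 0.04 (limma adjusted p = 0.0189) was lost with quantile normalization (limma adjusted p = 0.65) and cyclic loess (0.685), and when control replicate 1 (0.0772) or Atad2 replicate 3 (0.0659) was omitted. Of 16 other genes of this complex, 8 rose, none fell and 8 were not called, with a median of 0.11. These values are near those of genes at the level of the 8 readers, of which 51.8% rose with a median of 0.10. The share that rose over all genes tested was 30.8%. Several of the 16, such as Ing3 (mean log2 level 10.71) and Mbtd1 (10.77), lay below the level of the 8 readers. Neither share is therefore matched to this list. Vps72, a histone variant chaperone subunit, and Actl6a, an actin-related subunit shared with SWI/SNF, rose by 0.40 ± 0.04 and 0.38 ± 0.04.

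Of the SWI/SNF readers, Brd9 fell and Brd7 was not called, and the difference between them was not tested. Brd9 (chr13:73937811-73960895, plus strand), of the noncanonical form, stood at 11.55, 11.64, 11.57 and 11.57 in the controls and at 11.41, 11.42, 11.47 and 11.53 in the Atad2 libraries. All Atad2 values were below all controls. Brd9 fell by 8.54% (log2 difference -0.13 ± 0.04, limma adjusted p = 0.012), and the adjusted p stayed under 0.05 in all 20 alternatives (at most 0.0442). The call was lost under 1 of the 20, the stricter threshold of 0.01. Brd7 (chr8:88331039-88362194, minus strand), of the PBAF form, stood at 12.02, 12.06, 12.10 and 12.06 in the controls and at 12.16, 12.14, 12.16 and 12.11 in the Atad2 libraries, without overlap. Its difference of 0.08 ± 0.04 narrowly missed the threshold (95% interval 0.01 to 0.16, limma adjusted p = 0.0509), passed it under 7 of 20 alternatives, and was near 0 with quantile normalization (-0.001, limma adjusted p = 0.985).

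Of 10 PBAF genes, 9 rose and 1 was not called, with a median log2 difference of 0.23, and of 7 noncanonical BAF genes 7 rose, with a median of 0.24. Over all genes tested 30.8% rose, and 51.8% of genes at the level of the 8 readers, with a median of 0.10. The counts are not independent, since 4 genes (Smarca4, Smarcc1, Smarcd1 and Actl6a) are in both lists. Smarcd1 and Smarcc1, core subunits of both forms, rose by 0.39 ± 0.04 and 0.34 ± 0.03. Of the genes specific to the noncanonical form, Bicra and Bicral (listed as Gltscr1 and Gltscr1l) rose by 0.12 ± 0.05 and 0.24 ± 0.04 and are named after their values were seen. The Bicra call was lost with quantile normalization (limma adjusted p = 0.0715) and cyclic loess (0.139), and so was that of Smarca4 (0.941 and 0.997). Calls of Bicral, Smarcc1, Smarcd1 and Actl6a were kept with both. Counts for these 2 lists were not made with those scalings. Joined over all lists of partners, with 3 other ATPases of ATAD symbol, 26 of 50 genes rose, 4 fell and 20 were not called (median 0.12). The share of increases was near the 51.8% of genes at the level of the 8 readers, though some of the 50 lay below that level. With quantile normalization 19 rose and 9 fell. Among those 3, Atad1, which extracts misplaced proteins from the mitochondrial surface, rose by 0.26 ± 0.05, and Atad3a and Atad5 were not called.

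**Figure D3:**
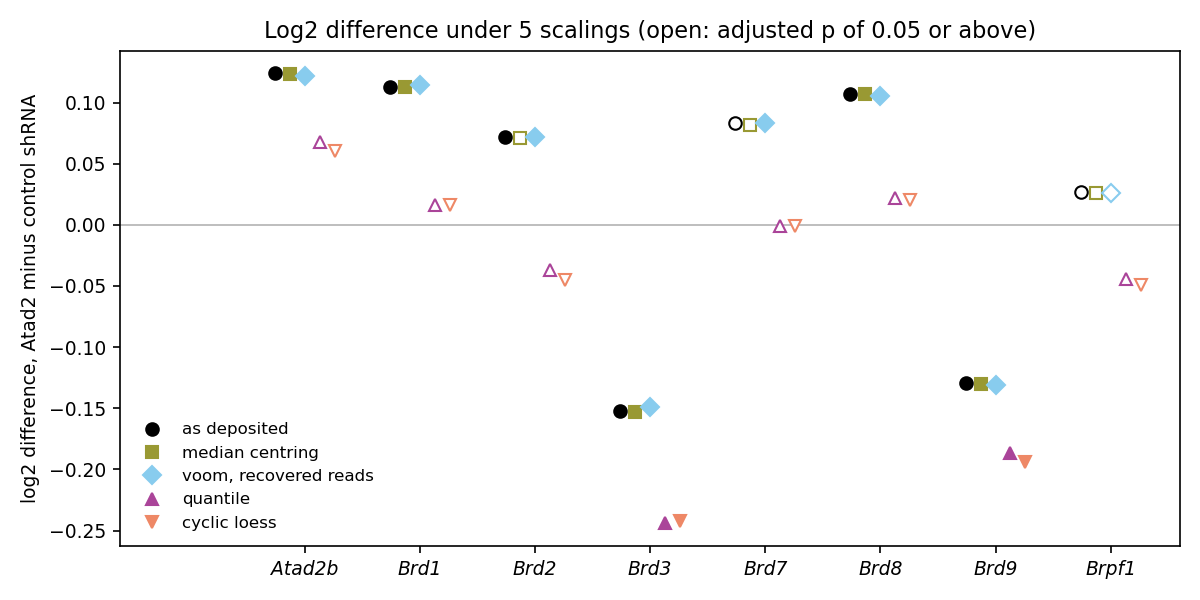
Log2 difference (Atad2 shRNA minus control) of the 8 genes other than Atad2 under 5 scalings of the libraries; filled symbols have an adjusted p under 0.05. Quantile and cyclic loess values (triangles) sit lower for every gene shown, so that Brd3 and Brd9 stay called and the differences of Brd2, Brd7 and Brpf1 turn negative without being called.

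The rest of the bromodomain family held larger differences than the 8 genes beside Atad2. Of 28 further bromodomain genes 27 were tested, of which 18 rose, 4 fell and 5 were not called, with a median log2 difference of 0.12, and groups did not overlap for 21. The 18 include Trim66, which passed the filter on low values only through the Atad2 libraries. Over all genes tested the shares were 30.8% higher, 29.6% lower and 53.5% not overlapping, and at the level of the 8 readers they were 51.8%, 21.1% and 66.4%. That level (11.48 to 14.75) does not cover all 27 genes, so its shares are not matched to them. The 4 that fell had lower means (Smarca2 11.04, Trim24 11.03, Kat2b 11.06 and Brdt 5.11), and Trim28 a higher one (14.9). With quantile normalization 11 rose and 4 fell, with a median of 0.02. The 4 increases with the lowest adjusted p were Kat2a (GCN5, the acetyltransferase of SAGA, 0.44 ± 0.04), Trim28 (KAP1, a corepressor of zinc finger proteins, 0.38 ± 0.03), Ep300 (the acetyltransferase p300, 0.33 ± 0.03) and Bptf (a subunit of the NURF remodeller, 0.24 ± 0.03). They stayed called under all 20 alternatives.

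The 4 that fell were Smarca2, Trim24, Kat2b and Brdt. Smarca2 (BRM, an ATPase of SWI/SNF) fell from 11.48 ± 0.07 to 10.60 ± 0.08 (-0.88 ± 0.05, limma adjusted p = 6.62e-12). Its alternative in the same complexes, Smarca4 (BRG1), named after its values were seen, rose by 0.12 ± 0.03, but by 0.003 with quantile normalization (limma adjusted p = 0.941). Trim24, a cofactor of nuclear receptors, changed by -0.51 ± 0.05, and Kat2b (PCAF), the paralog of Kat2a, by -0.30 ± 0.06. The difference between Kat2a and Kat2b was not tested. Brdt, the BET gene known from the testis, was weak, and its reads numbered 47 to 65 in each control and 16 to 25 in each library of the knockdown (-1.17 ± 0.32, limma adjusted p = 0.00377). The decrease was not called with quantile normalization (limma adjusted p = 0.0748) and cyclic loess (0.0722).

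**Figure D4:**
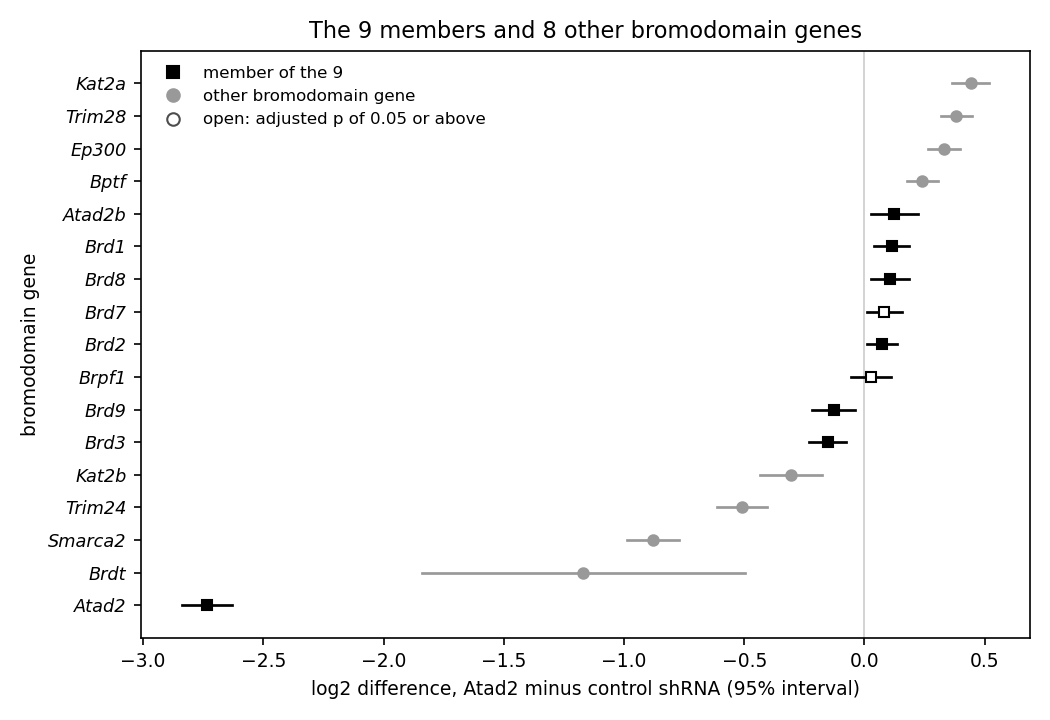
Log2 difference (Atad2 shRNA minus control) with its 95% interval for the 9 genes (squares) and the 4 most clearly higher and 4 lower of the further bromodomain genes (circles); open symbols have an adjusted p of 0.05 or above. Atad2 lies at -2.73, beyond Brdt at -1.17 and Smarca2 at -0.88, and the other 8 squares cluster near 0.

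Genes with a profile most like that of Atad2 were sought among 12798 tested genes (mean level 5 or more on the log2 scale), as the smallest root mean square distance over the 8 libraries after each gene's control mean was subtracted. These were Gpnmb, a membrane glycoprotein gene (distance 0.13), Samd12 (0.13), the adhesion molecule gene L1cam (0.15), the protease inhibitor gene Serpinb6b (0.15) and the chemokine gene Cxcl12 (0.15). Their log2 differences ran from -2.86 to -2.56, beside -2.73 for Atad2. The gap between the groups dominates such a distance, so it mostly finds genes that fell as far. Gpnmb stood at 11.72, 11.70, 11.80 and 11.86 in the controls and at 8.91, 9.04, 8.99 and 9.01 in the Atad2 libraries.

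Genes beside Atad2 on chromosome 15 did not share its decrease in size. On the lower side, Zhx1, a zinc finger and homeobox gene 17.5 kb away, changed by -0.37 ± 0.04, and 9130401M01Rik, 59.7 kb away, rose by 0.39 ± 0.04. On the higher side, Wdyhv1, an amidase gene 6.3 kb away, stood at 9.94 ± 0.09 and 9.81 ± 0.16 (-0.12 ± 0.08, limma adjusted p = 0.181). Fbxo32, 40.8 kb away, which encodes the muscle atrophy ligase atrogin-1, rose by 0.40 ± 0.08 (limma adjusted p = 0.000127) with overlapping groups. The exact permutation p for Fbxo32 was 0.0571.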

How the data were processed

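RNA of 4 control and 4 Atad2 shRNA libraries was sequenced, and samples were grouped by the treatment in their labels. The submitters' processing notes name build mm10, DESeq2, HTSeq 0.13.5, SAMtools 1.1 and bcl2fastq 2.20. Aligner, annotation and strand setting: not given in the sources used here. The authors deposited log2 values, in which 1 had been added to scaled counts before the logarithm, as read from the values: converted back, low values were whole multiples of 1 step in 100% of cases (tolerance 0.1 reads). Reads recovered with that step gave depth and read ranges.

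Genes with a mean above 3 were fitted with limma 3.58.1 in R 4.3.3 (lmFit, eBayes with an intensity trend, two-sided, Benjamini-Hochberg). Single values were compared by exact permutation over the 70 assignments of 8 libraries. Tables and plots used Python 3.11.15, NumPy 2.4.6, pandas 2.3.3 and matplotlib 3.10.9. The procedure was tested on simulated data. Exon lengths, positions and transcripts are from GENCODE M21 (GRCm38), in its basic set. Of the list symbols, all were found, some under older symbols. Replicates of a group differed beyond sampling noise.

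The 9 genes, lists and tests were chosen with earlier results of these data known. Named genes are the 9, up to 4 called in each direction among further bromodomain genes and up to 2 in each direction per partner or ATAD list (lowest adjusted p), the 5 closest profiles to Atad2, and the 2 nearest tested protein-coding genes on each side, and the highest marker of each list; other genes, including markers, genes without a call and those so marked, were named after their values were seen. Alternatives changed the scaling (median centring, quantile, cyclic loess), the filter (none, or a mean above 5), the offset (8), the model (a robust prior, no trend, weighted libraries), the unit (limma-voom on recovered reads), the replicate block and the threshold (0.01), or omitted each library in turn.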

Additional observations from a re-analysis of the deposited data

Results flagged for a closer look

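In 74 groups of 4 libraries (37 named genes), 4 values stood apart from the other 3 of their group by more than Dixon's 95% critical value; chance flags about 1 in 20 groups, so 4 is about as many as chance gives. Ep300 stood apart in both groups, at 14.19 in control replicate 3, the highest control, and at 14.40 in Atad2 replicate 4, the lowest Atad2 value. Ell2 was lowest at 11.34 in control replicate 1, and Ccnt2 at 11.26 in control replicate 4. None of the 9 bromodomain genes named at the outset had such a value.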

How the results depend on the processing

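The Atad2 decrease (-2.84 to -2.68) and the counts over all genes kept their direction and threshold, the counts within 1.5 times, under all 20 alternatives. Of the 8 other genes, quantile normalization and cyclic loess left 0 higher and 2 lower (Brd2 at -0.037 and -0.045), an adjusted p under 0.01 left 1 higher and 1 lower, and leaving out 1 library gave 1 to 5 higher (2 when control replicate 1 or 2 or Atad2 replicate 2 was omitted, 1 for Atad2 replicate 3) and 2 lower. Among further bromodomain genes both of these normalizations called 11 higher, and among partner genes 9 lower. The cause was not tested. Without 1 library the change in Atad2 minus Atad2b was -2.93 to -2.80. Replicate numbers did not pair the libraries: deviations of same-numbered libraries correlated at -0.02 to 0.03. With the replicate block, Atad2 minus Atad2b was -2.859 with an exact sign-flip p of 0.125, the smallest 4 pairs allow, and 4 of the 8 genes were higher and 2 lower. On recovered reads limma-voom called 4565 genes higher and 4385 lower. Depth limits weak genes such as Brdt.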

Other observations

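Trim66, a bromodomain gene related to Trim24 and Trim28 and chosen here after its values were seen, had few reads in the controls. Its reads numbered 3 to 16 in each control and 33 to 79 in each library of the knockdown (log2 level 2.83 ± 0.92 and 5.79 ± 0.43, SD, n = 4 each). It passed the filter on low values through the Atad2 libraries, so its values are given as a description with no test. Cecr2, the 1 bromodomain gene not tested, had at most 7 reads in any control and at most 1 in any library of the knockdown.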
